A study of Mus musculus with 16 samples.

Results

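The heat shock chaperones are 8 genes taken by symbol: the HSP70 genes Hspa1a, Hspa1b and Hspa8, the HSP110 gene Hsph1, the J-protein gene Dnajb1, the HSP90 gene Hsp90aa1, and the mitochondrial chaperonin pair Hspd1 and Hspe1. They were chosen by name from among 17097 mouse genes with a probe set, and where a gene had several probe sets, the brightest by mean over the 16 arrays stood for it. The probe table names a probe set for 6 of the 8, and none for Hspa1a or Hspd1, so levels of those 2 genes were not analysed here.

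Expression was measured on 16 microarrays, each hybridised with amplified cDNA of 1 pool of mouse adipose tissue macrophages, in 4 groups of 4 pools. The groups were knockout visceral fat (KO VAT), knockout subcutaneous fat (KO SAT), wild-type visceral fat (WT VAT) and wild-type subcutaneous fat (WT SAT), from mice aged 19 to 21 weeks. Mice of the groups labelled KO-LysM lack Sucnr1, the receptor for extracellular succinate, in cells that express lysozyme M, whose promoter drives Cre recombinase in myeloid cells. The design text gives the controls, labelled WT, as Sucnr1 flox/flox mice, and names LysM, the driver of Cre, for the knockout alone. Cells were released from fat with collagenase and taken on CD11b beads, while another label calls them F4/80-positive, and CD11b is carried by other myeloid cells too. Each group had 2 pools (numbers 1 and 2) on day 1 and 2 pools (numbers 3 and 4) on day 2. The labels do not spell out what a day or the letters NCD stand for, and say nothing on how many animals a pool holds, so the p-values measure the spread between pools.

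Heat shock proteins bind unfolded stretches of other proteins and let them fold. HSP70 proteins cycle with ATP: J-proteins such as Dnajb1 deliver the client and trigger hydrolysis, and HSP110 proteins such as Hsph1 release the nucleotide so that the client can leave. HSP90 takes over clients such as kinases and receptors, and the chaperonin Hspd1 with its lid Hspe1 folds proteins in the mitochondrial matrix. When proteins unfold, the transcription factor Hsf1 binds heat shock elements, inverted repeats of the unit GAA, and raises these genes. In macrophages they are known to respond to fever, to inflammatory stimuli and to the handling of cells at isolation.

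Before the results, 4 properties of these arrays have to be stated. The Sucnr1 probe set lay between 3.35 and 3.65 on all arrays (log2 units), under a background of 4.78, the 95th percentile of 41 olfactory receptor genes, so it checks no genotype label. Lyz2, the lysozyme M gene, changed by -0.64 in SAT and -0.58 in VAT, knockout minus wild type (limma adjusted p = 0.00525 and 0.0156). Of all genes 20.0% and 5.76% passed as lower there, and the reason for the Lyz2 change was not tested. For 3 genes the depot difference ran in opposite directions in the genotypes. They were picked from these data for that pattern. Akr1c18, a steroid-metabolising enzyme gene, averaged 10.18 in KO VAT and 5.26 in KO SAT, against 4.91 in WT VAT and 8.70 in WT SAT, and the retinol dehydrogenase gene Adh7 and the homeobox gene Emx2 were likewise higher in KO VAT than in KO SAT and lower in WT VAT than in WT SAT. The difference between genotypes averaged over the depots does not depend on which fat is called VAT within a genotype, and the crossed pairs (KO SAT against WT VAT, KO VAT against WT SAT) are therefore given too. Array spread, the interquartile range of all values on an array, averaged 2.50 on KO arrays (2.36 to 2.63) and 2.25 on WT arrays (2.01 to 2.54), and 2.48 on day 2 arrays against 2.28 on day 1 arrays. WT VAT pool 1 had the smallest spread (2.01) and the lowest mean correlation with its group across probe sets, 0.955. The whole WT VAT group was less alike, with pools 2, 3 and 4 at 0.976, 0.968 and 0.968, where pools of the other groups had 0.987 or more. WT VAT pools 1 and 2 (day 1) correlated at 0.982, pools 3 and 4 (day 2) at 0.990, and pools 1 and 4 at 0.941. In every group 10 of 10 macrophage marker genes averaged above background, and so did 6 of 7 endothelial, 6 of 7 T cell, 6 of 8 stromal and 4 of 5 erythroid marker genes. In bulk RNA fewer cells of a type and less RNA per cell cannot be told apart.

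The promoters are shown first, because heat shock elements in them are the known handle on these genes. The windows are the 250 bases before an annotated start (the first listed for Hsph1 and Dnajb1, which have 2 each), from RefSeq on GRCm38.p6, and entries were found for 6 of the 8 genes, with Hspa8 and Hsp90aa1 named only. Capitals mark heat shock elements, searched on both strands as 2 facing units (GAANNTTC or TTCNNGAA) and as 3 units (GAANNTTCNNGAA or TTCNNGAANNTTC), where any 3-unit match holds 2 overlapping 2-unit matches. Hspa1b and Hspa1a are printed together because an array probe for one may bind the RNA of the other. The Hspa1b window lies on the minus strand at chr17:34959239-34959488 and the Hspa1a window on the minus strand at chr17:34972157-34972406.
Hspa1b: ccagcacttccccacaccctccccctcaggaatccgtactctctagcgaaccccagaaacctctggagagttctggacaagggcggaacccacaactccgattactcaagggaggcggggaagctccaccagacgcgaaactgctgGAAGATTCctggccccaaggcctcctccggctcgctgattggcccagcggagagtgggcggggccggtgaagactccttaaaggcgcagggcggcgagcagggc
Hspa1a: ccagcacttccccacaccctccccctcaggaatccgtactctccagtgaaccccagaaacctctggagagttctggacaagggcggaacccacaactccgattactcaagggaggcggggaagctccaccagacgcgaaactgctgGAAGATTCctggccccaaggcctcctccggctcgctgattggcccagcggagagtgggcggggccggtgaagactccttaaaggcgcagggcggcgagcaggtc
The HSP70 windows were identical at 247 of 250 bases (98.8%), and differed, counted from 1 at the 5′ end and written from Hspa1b to Hspa1a, at T44C, C47T and G249T. Both hold the element GAAGATTC from 104 to 97 bases before the start and an ATTGG box from 67 to 63 bases before it. The annotated genes stand 10120 bases apart on chromosome 17, Hspa1b at 34956429 to 34959238 and Hspa1a at 34969359 to 34972156.

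The other windows are printed because their genes passed the test in several comparisons below. The Hspe1 window (plus strand) lies at chr1:55087898-55088147, the Hsph1 window (minus strand) at chr5:149636337-149636586, and the Dnajb1 window (plus strand) at chr8:83607925-83608174.
Hspe1: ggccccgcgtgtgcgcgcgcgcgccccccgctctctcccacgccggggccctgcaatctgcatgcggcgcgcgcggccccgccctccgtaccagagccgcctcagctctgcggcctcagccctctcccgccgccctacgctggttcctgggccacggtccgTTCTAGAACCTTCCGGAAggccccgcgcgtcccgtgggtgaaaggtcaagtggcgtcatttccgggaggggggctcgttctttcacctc
Hsph1: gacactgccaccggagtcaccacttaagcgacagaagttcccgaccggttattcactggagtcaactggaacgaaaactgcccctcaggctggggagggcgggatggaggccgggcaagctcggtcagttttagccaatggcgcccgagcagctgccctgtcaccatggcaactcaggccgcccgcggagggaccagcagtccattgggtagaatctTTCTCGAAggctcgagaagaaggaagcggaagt
Dnajb1: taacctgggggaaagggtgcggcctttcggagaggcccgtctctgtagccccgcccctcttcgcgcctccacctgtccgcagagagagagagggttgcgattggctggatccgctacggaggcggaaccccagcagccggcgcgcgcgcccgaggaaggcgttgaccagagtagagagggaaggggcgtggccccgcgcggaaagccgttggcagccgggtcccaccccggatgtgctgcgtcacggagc
Hspe1 holds 2 overlapping 3-unit elements in 1 run, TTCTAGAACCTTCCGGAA, from 89 to 72 bases before the start. Hspd1 runs the other way from the same stretch: the annotations of Hspd1 and Hspe1 overlap by 96 bases, and the window of the second Hspd1 start at chr1:55087933-55088182 holds the same run on the opposite strand. Hsph1 holds the 2-unit element TTCTCGAA from 33 to 26 bases before the start, and Dnajb1 has no match to either pattern in this window. Of 32841 promoter windows, 12.8% hold a 2-unit match, 0.466% (153 windows) a 3-unit match and 33.9% a CCAAT or ATTGG box. A match is a string of letters and does not show binding.

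All 6 measured genes were well above background on every array, their lowest value being 8.44 for Hsp90aa1. Hspa1b, the stress-inducible HSP70, was read by the brightest of its 3 probe sets and stood at 9.62, 9.28, 9.57 and 9.85 in KO VAT pools 1 to 4 and at 9.90, 10.27, 10.38 and 10.23 in KO SAT. In wild type it stood at 9.29, 9.59, 10.12 and 10.19 in WT VAT and at 9.14, 9.52, 9.63 and 9.13 in WT SAT. All KO SAT pools lay above all KO VAT and all WT SAT pools, while WT VAT was split by day, with both day 2 pools near KO SAT and both day 1 pools low. Hspa8, the constitutive HSP70 of the cytosol, varied least over the 16 arrays, by 0.65 from lowest to highest. It stood at 11.30, 11.46, 11.57 and 11.58 in KO VAT and 11.14, 11.31, 11.43 and 11.47 in KO SAT, against 10.93, 11.22, 11.42 and 11.39 in WT VAT and 11.06, 11.17, 11.39 and 11.18 in WT SAT. In each group both day 2 pools of Hspa8 lay above both day 1 pools, and the genotypes overlapped.

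Hsph1, which recharges HSP70, was tightest in KO VAT, at 10.34, 10.19, 10.34 and 10.31, and stood at 9.97, 10.02, 10.23 and 10.05 in KO SAT. Its wild-type values were 9.15, 9.61, 9.87 and 10.04 in WT VAT and 9.65, 10.05, 10.12 and 9.79 in WT SAT. All KO VAT pools of Hsph1 lay above all wild-type pools of both depots. Dnajb1, the J-protein that recruits clients to inducible HSP70, stood at 9.67, 9.46, 10.01 and 9.89 in KO VAT and 9.53, 9.42, 9.74 and 9.77 in KO SAT, against 8.61, 9.20, 9.47 and 9.69 in WT VAT and 9.03, 9.26, 9.61 and 9.36 in WT SAT. Day 2 pools exceeded day 1 pools in every group, and the genotypes overlapped.

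Hsp90aa1, the inducible cytosolic HSP90, stood at 9.88, 9.64, 9.89 and 9.86 in KO VAT and 9.61, 9.49, 9.92 and 9.85 in KO SAT. Its values were 8.44, 9.32, 9.66 and 9.68 in WT VAT and 9.30, 9.56, 9.41 and 9.07 in WT SAT, so that its range over all arrays, 1.48, was set at the low end by WT VAT pool 1. Hspe1, the lid of the mitochondrial chaperonin, stood at 10.92, 10.85, 11.16 and 11.05 in KO VAT and 10.81, 10.62, 10.91 and 11.08 in KO SAT, against 10.32, 10.52, 11.08 and 11.15 in WT VAT and 10.18, 10.46, 10.60 and 10.33 in WT SAT. WT SAT was the low group of Hspe1, below all KO pools, and the day 2 pools of WT VAT reached the KO level.

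**Figure D1:**
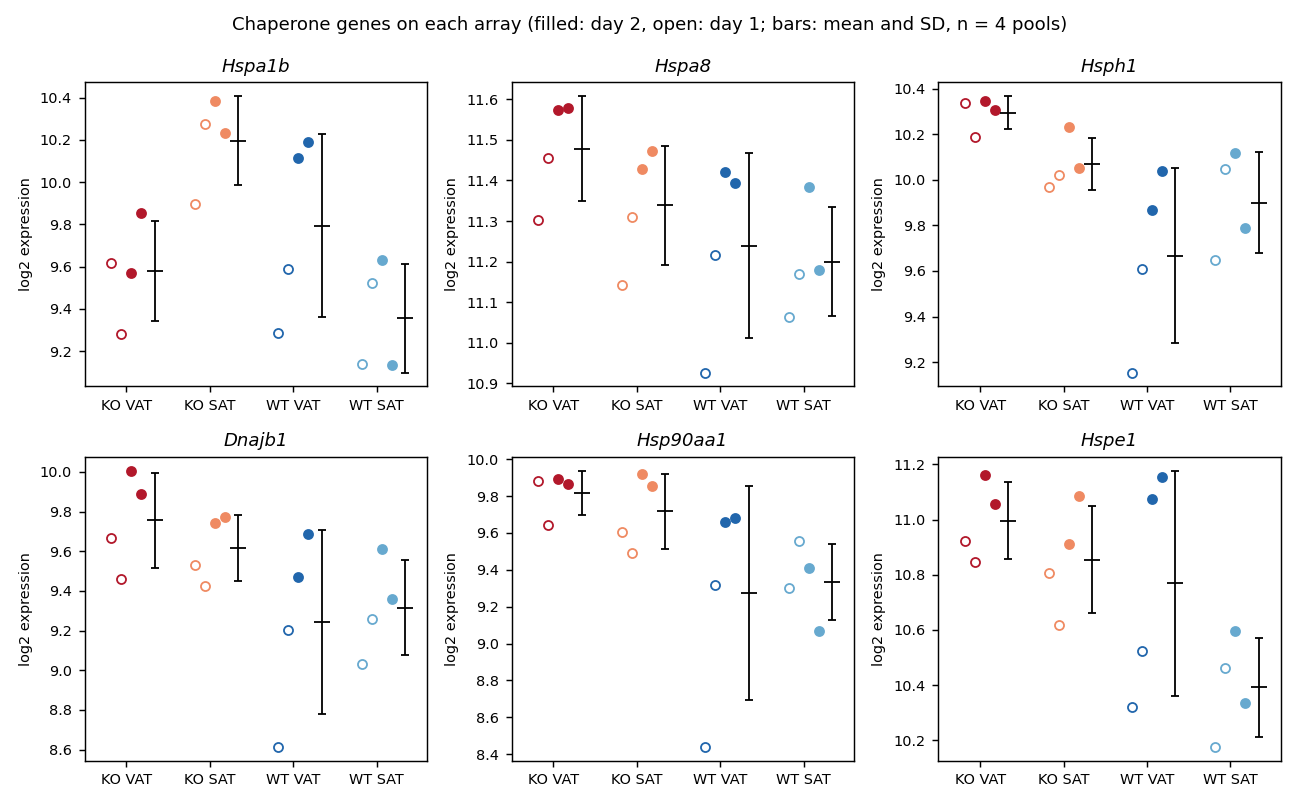
Log2 expression of the 6 measured chaperone genes on each of 16 arrays, by group (KO VAT, KO SAT, WT VAT, WT SAT; n = 4 pools each). Filled points are day 2, open points day 1, and bars give the mean and SD. The Hspa1b pools of KO SAT lie between 9.90 and 10.38, above all KO VAT and WT SAT pools, and the WT VAT pools of each gene spread widest.

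By group mean, the order was KO VAT, KO SAT, WT VAT, WT SAT for Hspa8 (11.48, 11.34, 11.24 and 11.20) and Hspe1 (11.00, 10.86, 10.77 and 10.39). It was KO VAT, KO SAT, WT SAT, WT VAT for Hsph1 (10.29, 10.07, 9.90 and 9.67), Dnajb1 (9.76, 9.62, 9.32 and 9.24) and Hsp90aa1 (9.82, 9.72, 9.33 and 9.27). Hspa1b alone among the 6 had KO SAT first, then WT VAT, KO VAT and WT SAT (10.20, 9.79, 9.58 and 9.36). No 2 groups next to each other in these orders differed past the threshold used below.

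The first comparison asks how loss of Sucnr1 in myeloid cells goes with chaperone expression whatever the fat. Every measured member was higher in knockout than in wild type, averaged over both depots: Hsp90aa1 by 0.46 ± 0.14 (log2 change and SE), Dnajb1 by 0.41 ± 0.09, Hsph1 by 0.40 ± 0.10, Hspe1 by 0.34 ± 0.08, Hspa1b by 0.31 ± 0.11 and Hspa8 by 0.19 ± 0.06 (n = 8 pools per genotype). The limma adjusted p was 0.0133 for Hsp90aa1, 0.00289 for Dnajb1, 0.00473 for Hsph1, 0.0047 for Hspe1, 0.0326 for Hspa1b and 0.0158 for Hspa8, so 6 of 6 passed at 0.05. That count stands in a broad shift: 51.7% of the 17097 genes passed in either direction and 22.5% were higher in knockout. The median change was 0.37 over the members (1.29-fold) and -0.05 over all genes. By mean level, the members' probe sets in use lay between the 96.7th (Dnajb1) and the 99.5th (Hspa8) percentile of all probe sets. The members were not set against genes of like brightness, here or for the days. After quantile normalization of the deposited values, the member median was 0.17 and 4 of 6 passed, where 38.9% of all genes did, with Hspa1b at 0.07 and Hspa8 at 0.10 not past the threshold. KO and WT values overlapped for all 6.

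Within the days, 2 of 6 passed on day 2 alone, Dnajb1 (0.32) and Hsp90aa1 (0.43), and 3 on day 1 alone, Dnajb1 (0.49), Hsph1 (0.51) and Hspe1 (0.43), with all 6 changes positive on each day. The share of all genes passing on a single day is not given here, so these counts cannot be read as particular to the members.

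These rises move with array spread. The mean of the 6 genes per array lay between 10.15 and 10.44 on the KO arrays and between 9.46 and 10.36 on the WT arrays, and the WT arrays of widest spread, WT VAT pools 3 and 4 (2.50 and 2.54), had the highest WT means, 10.27 and 10.36. With array spread as a term in the model, 0 of 6 members passed, where 7.91% of all genes did, and the changes were 0.10 for Dnajb1, 0.07 for Hspa8, 0.04 for Hsph1, 0.0003 for Hspe1, -0.07 for Hspa1b and -0.14 for Hsp90aa1. Spread differs between the genotypes, and the part that each has in these rises cannot be told apart. Hspa1b also lost its call (adjusted p up to 0.0711) without any one of 8 pools: KO VAT 1 or 4 (0.28 and 0.29), KO SAT 2 or 3 (0.27 and 0.31), WT VAT 1 or 2 (0.25 and 0.30) or WT SAT 1 or 4 (0.30 and 0.24). The other 5 kept theirs whichever pool was left out.

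**Figure D2:**
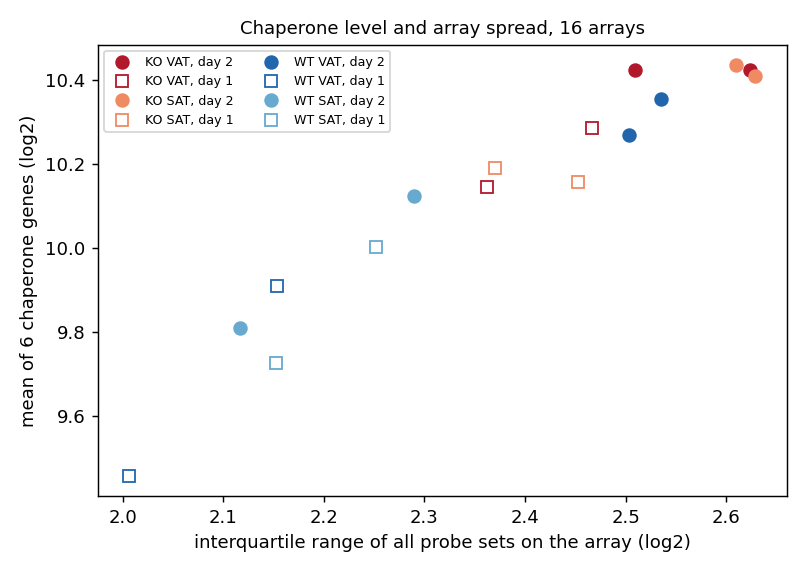
Mean log2 level of the 6 measured chaperone genes on each array (vertical axis) against the interquartile range of all probe sets on that array (horizontal axis), coloured by group, day 2 as filled circles and day 1 as open squares. The chaperone means tend to be higher on arrays of wider spread, from 9.46 at a spread of 2.01 (WT VAT pool 1) to 10.41 at 2.63 (KO SAT pool 4).

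Cell type markers moved in the same comparison. Of markers of other cells, 6 of 8 stromal genes, 3 of 7 endothelial genes, 5 of 7 epithelial genes and 6 of 6 seminal vesicle genes were higher in knockout, while 7 of 7 T cell genes and 8 of 8 skeletal muscle genes, and 3 of 10 macrophage genes, were lower. Of all genes 22.5% were higher and 29.2% lower, so the share of macrophage genes called lower lay near that of all genes. Of macrophage genes 0 were called higher, 9 of 10 changes were negative, and the median was -0.19, against -0.05 over all genes. The counts differed by depot. In SAT 7 of 7 T cell and 8 of 8 skeletal muscle genes were lower (20.0% of all genes). In VAT 0 of either were lower (5.76% of all genes). There 1 of 7 T cell and 5 of 8 skeletal muscle genes were higher (10.2%). Of stromal genes 6 of 8 were higher and 1 lower in SAT, and 1 of 8 was higher in VAT. Of epithelial genes 2 of 7 were higher in SAT and 4 of 7 in VAT. In SAT 16.7% of all genes were higher. Of macrophage genes 1 of 10 was lower in SAT and 3 of 10 in VAT. Over its 8 genes, the stromal list averaged 8.13 to 8.30 in KO VAT and 7.79 to 8.21 in KO SAT, against 7.48 to 8.46 in WT VAT and 6.98 to 7.38 in WT SAT. Over its 10 genes, the macrophage list averaged 7.67 to 8.33 in KO VAT and 8.25 to 8.82 in KO SAT, against 7.74 to 8.83 in WT VAT and 8.46 to 8.87 in WT SAT. Their part in the chaperone result was not tested.

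In subcutaneous fat Hspa1b was 0.84 ± 0.16 higher in KO SAT than in WT SAT (1.79-fold, adjusted p = 0.00253), and Hspe1 0.46 ± 0.12 higher (adjusted p = 0.0102), with no overlap of pools for either (n = 4 each), as was so for 36.0% of all genes. On day 2 alone Hspa1b was at 0.93 and Hspe1 at 0.53, both past the threshold, and on day 1 alone at 0.75 and 0.39, neither past it. Over all genes, far fewer passed in SAT on day 1 alone than in the fit of both days (counts in the last section). In the fit of both days the 2 of 6 compare with 36.7% of all genes in either direction and 16.7% higher. The other 4 were at 0.14 (Hspa8), 0.17 (Hsph1), 0.30 (Dnajb1) and 0.38 (Hsp90aa1) and did not pass. Leaving out WT VAT pool 1 brought Dnajb1 (0.30) and Hsp90aa1 (0.38) past the threshold, and leaving out WT SAT pool 2 brought Dnajb1 (0.36). With array spread as a term 0 of 6 passed (7.65% of all genes), Hspa1b being at 0.37.

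In visceral fat Hsph1 was 0.63 ± 0.14 higher in KO VAT than in WT VAT (1.54-fold, adjusted p = 0.00869), with no overlap, as for 12.1% of all genes, and Dnajb1 0.51 ± 0.13 higher (adjusted p = 0.0163), with overlap. These 2 of 6 compare with 15.9% of all genes in either direction and 10.2% higher. Hsp90aa1 at 0.54, Hspa8 at 0.24, Hspe1 at 0.23 and Hspa1b at -0.21 did not pass. On day 2 alone 0 of 6 passed and on day 1 alone 4 did, the day on which WT VAT pool 1 was taken. Over all genes too, far fewer passed in VAT on day 2 alone than on day 1 alone (counts in the last section). The Dnajb1 call was lost without KO VAT pool 1 (0.47), while Hsp90aa1 passed without WT VAT pool 3 or 4 (0.64 each) or WT SAT pool 4 (0.54), and Hspa8 passed without WT SAT pool 4 (0.24). Without WT VAT pool 1 Hsp90aa1 was at 0.29 (adjusted p = 0.172). With array spread as a term Hsph1 stayed past the threshold (0.36, adjusted p = 0.0439), Dnajb1 did not (0.28), and Hspa1b passed as lower (-0.50, adjusted p = 0.0312), where 10.8% of all genes passed.

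**Figure D3:**
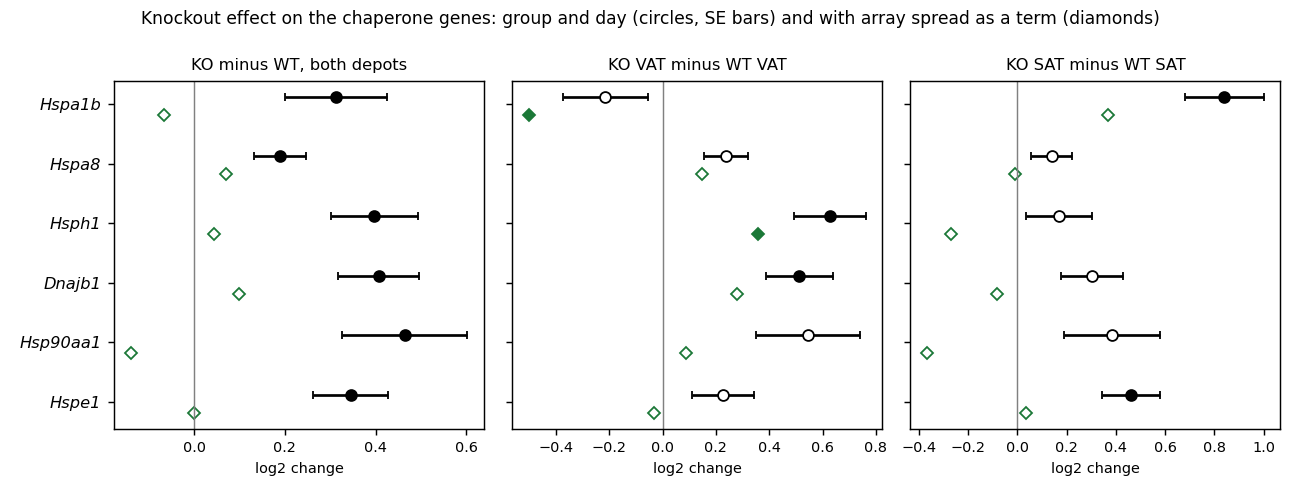
Log2 change, knockout minus wild type, of each measured chaperone gene over both depots (left), in VAT (middle) and in SAT (right). Circles with SE bars come from the model with group and day, diamonds from the model that also holds array spread, and filled symbols passed at an adjusted p under 0.05. Over both depots all 6 circles are filled, between 0.19 and 0.46, and no diamond is, between -0.14 and 0.10.

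Hspa1b was the member whose knockout effect differed between the depots. The effect in VAT minus that in SAT was -1.05 ± 0.23 (adjusted p = 0.0132), where 4.22% of all genes passed and 2.12% in this direction. No other member passed: Hspe1 was at -0.24, Hspa8 at 0.10, Hsp90aa1 at 0.16, Dnajb1 at 0.21 and Hsph1 at 0.46. The Hspa1b call held without any one pool (-1.18 to -0.92) and on day 2 alone (-1.37, adjusted p = 0.014), but not on day 1 alone (-0.74, adjusted p = 0.274). It also held with array spread as a term (-0.87, adjusted p = 0.00349), where Hsph1 (0.63) and Hsp90aa1 (0.45) passed too and 9.91% of all genes did. The same numbers also describe a high level in KO SAT and WT VAT and a low one in KO VAT and WT SAT.

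Hspa1b had 3 probe sets, and all gave KO SAT as the highest group. The second, of a kind that can bind several transcripts, stood at 7.03, 6.56, 7.08 and 7.31 in KO VAT and 7.45, 7.86, 8.05 and 7.89 in KO SAT, against 6.34, 6.51, 7.45 and 7.43 in WT VAT and 6.88, 7.03, 6.89 and 6.64 in WT SAT. The third stood at 6.39, 5.69, 6.38 and 6.69 in KO VAT and 7.35, 7.56, 7.89 and 7.60 in KO SAT, against 6.08, 5.77, 6.80 and 6.35 in WT VAT and 6.29, 6.51, 6.51 and 6.32 in WT SAT. On the third, every KO SAT pool lay above every pool of the other groups. Fitted among all probe sets, KO SAT minus WT SAT was 0.84 ± 0.16, 0.95 ± 0.20 and 1.19 ± 0.17 on the first, the second and the third (adjusted p = 0.00274, 0.00402 and 0.000578). KO VAT minus WT VAT was -0.21, 0.06 and 0.03, and passed on none. The difference between these effects was -1.05, -0.89 and -1.16 (adjusted p = 0.0183, 0.119 and 0.0154), so the second probe set missed the threshold. Hspa1a and Hspa1b are known as near-identical copies, and no probe or transcript sequences were compared here, so which copy these probe sets read is uncertain.

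**Figure D4:**
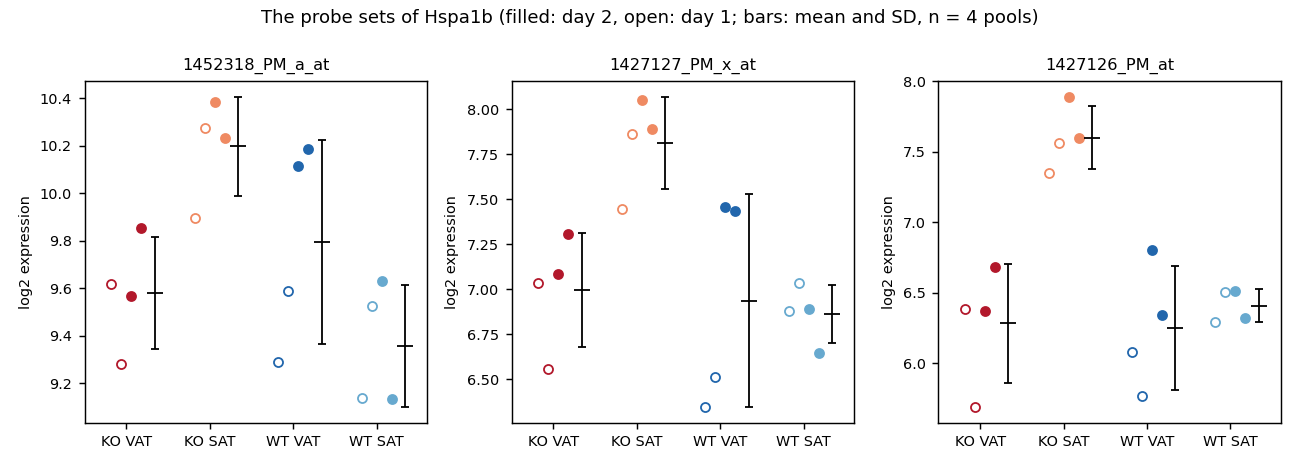
Log2 values of the 3 probe sets of Hspa1b on 16 arrays by group, with filled points for day 2, open points for day 1, and bars for the mean and SD (n = 4 pools each). KO SAT has the highest mean on each, 10.20, 7.81 and 7.60, and the WT VAT pools of day 2 lie above those of day 1 on each.

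Markers of other cells moved with KO SAT. The 6 seminal vesicle genes averaged 9.62 to 10.35 in KO SAT, against 4.36 to 4.55 in KO VAT, 4.43 to 4.78 in WT VAT and 4.44 to 5.87 in WT SAT. The 7 endothelial genes averaged 6.69 to 7.11 in KO SAT, against 5.50 to 6.75 in KO VAT, 5.73 to 6.72 in WT VAT and 5.67 to 5.98 in WT SAT. In KO SAT against WT SAT, 4 of 7 endothelial and 6 of 8 stromal genes were higher, and 1 of 8 stromal genes was lower. There 7 of 7 T cell and 8 of 8 skeletal muscle genes were lower. Of all genes 16.7% were higher and 20.0% lower. Their part in the Hspa1b difference was not tested.

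Between depots, the wild-type arrays gave 0 of 6 members past the threshold in limma for VAT minus SAT, where 2.84% of all genes passed. An unadjusted p under 0.05 was found for 2505 of the 17097 genes and for 2 members, Hspa1b (0.44 ± 0.16, adjusted p = 0.196) and Hspe1 (0.38 ± 0.12, adjusted p = 0.111). Both passed without WT VAT pool 1, at 0.57 and 0.48. The other 4 were between -0.23 (Hsph1) and 0.04 (Hspa8). On the knockout arrays Hspa1b was lower in KO VAT than in KO SAT by 0.62 ± 0.16 (log2 change -0.62, adjusted p = 0.041), where 4.32% of all genes passed and 2.39% as lower. Its pools did not overlap, as was so for 10.3% of all genes. That call was lost without any one of 11 of the 16 pools (log2 change -0.69 to -0.53, adjusted p up to 0.158), every KO pool among them, with WT VAT pool 2 and WT SAT pools 1 and 3, and on either day alone (-0.60 on day 2, -0.64 on day 1). The second and the third probe set gave -0.82 and -1.32 (adjusted p = 0.0331 and 0.000509). The remaining 5 members were between 0.10 and 0.23 in this comparison and did not pass.

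The crossed pairs set each knockout depot beside the wild-type depot that stands on the same side, higher or lower, of its own genotype's pair for Akr1c18, Adh7 and Emx2. The levels themselves still differed in part: Akr1c18 was 1.48 and Emx2 1.72 higher in KO VAT than in WT SAT (adjusted p = 3.11e-05 and 3.65e-06), and Adh7 was lower in KO SAT than in WT VAT (log2 change -1.16, adjusted p = 0.0016). In KO SAT against WT VAT 0 of 6 members passed in limma, where 6.89% of all genes did. An unadjusted p under 0.05 was found for 5651 of the 17097 genes and for 4 members. The changes were 0.44 for Hsp90aa1, 0.40 for Hsph1 and for Hspa1b, 0.37 for Dnajb1, 0.10 for Hspa8 and 0.09 for Hspe1. Without WT VAT pool 4, Dnajb1 (0.46) and Hsph1 (0.49) passed, and without WT VAT pool 1 Hsp90aa1 was at 0.19. The second and the third probe set of Hspa1b passed here, at 0.88 and 1.35 (adjusted p = 0.0224 and 0.00148).

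In KO VAT against WT SAT 4 of 6 members were higher: Hspe1 by 0.60 ± 0.12 (adjusted p = 0.00206), Dnajb1 by 0.44 ± 0.13 (adjusted p = 0.0155), Hsph1 by 0.39 ± 0.14 (adjusted p = 0.0334) and Hspa8 by 0.28 ± 0.08 (adjusted p = 0.0179). Of all genes 39.3% passed in either direction and 18.3% as higher. The pools of Hspe1, Hsph1 and Hsp90aa1 did not overlap, as was so for 39.7% of all genes, although Hsp90aa1 (0.49, adjusted p = 0.0599) did not pass, and Hspa1b was at 0.22. Without WT SAT pool 4 only Hspe1 of the 6 passed (0.52 to 0.69 over all pools left out), with Dnajb1 at 0.38, Hsph1 at 0.31 and Hspa8 at 0.23. Dnajb1 was also lost without KO VAT pool 1 (0.40), Hspa8 without KO VAT pool 2 (0.24), and Hsph1 without KO VAT pool 1, 2 or 3 or WT SAT pool 1 (0.34, 0.39, 0.42 and 0.34). Hsp90aa1 passed when WT SAT pool 2 (0.62) or WT VAT pool 1 (0.49) was dropped. With array spread as a term 0 of 6 passed, and 10.9% of all genes did. This pair and the pair within SAT share the WT SAT arrays, as the pairs against WT VAT share theirs.

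The day comparison asks whether chaperone levels, known to react to handling, differed between the days. They were higher on day 2: Dnajb1 by 0.42 ± 0.09 (adjusted p = 0.00865), Hspe1 by 0.34 ± 0.08 (adjusted p = 0.0139) and Hspa8 by 0.23 ± 0.06 (adjusted p = 0.0149), with 8 pools per day and overlap between days for each. Of all genes 28.3% passed in either direction and 17.2% as higher, and the medians were 0.29 over the members and 0.01 over all genes. Hspa1b (0.31, adjusted p = 0.0516), Hsp90aa1 (0.26, adjusted p = 0.147) and Hsph1 (0.22, adjusted p = 0.0889) did not pass. Fitted among all probe sets, the other probe sets of the called genes did not pass. Dnajb1 was at 0.19 on its other probe set, Hspe1 at 0.19, and Hspa8 at 0.21, 0.17 and 0.07. The third probe set of Hspa1b passed, at 0.36 (limma adjusted p = 0.0441). Hspa1b and Hsph1 both passed without WT SAT pool 2 (0.37 and 0.27) or pool 4 (0.38 and 0.26), and Hspa1b also without KO VAT pool 1 (0.35) or KO SAT pool 2 (0.35).

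Within groups, the day 2 mean was above the day 1 mean in 23 of 24 pairs of gene and group, the exception being Hsp90aa1 in WT SAT (-0.19). Over all genes the day 2 mean was higher in 51.5% of such pairs. Both day 2 pools lay above both day 1 pools in 16 of the 24: in all 4 groups for Dnajb1 and Hspa8, in 3 for Hspe1, in 2 for Hsph1 and Hsp90aa1, and in 1 for Hspa1b. Over all genes that was so in 29.4% of such pairs. WT VAT had the widest day difference for all 6 genes, from 0.34 (Hspa8) to 0.79 (Hsp90aa1). A term for a day difference that itself differs between genotypes passed for 0 of 6 members and for 0% of all genes in limma. At an unadjusted p under 0.05 it took in 335 genes and 0 members, whose estimates (knockout minus wild type) were all negative, from -0.23 to -0.04. With array spread as a term the day difference passed for 0 of 6 members and for 1.19% of all genes, with Dnajb1 at 0.17, Hspa8 at 0.14 and Hspe1 at 0.06. After quantile normalization it passed for 0 of 6 as well, and for 10.1% of all genes, with Dnajb1 at 0.14 and Hspe1 at 0.13. Spread was wider on day 2, and the part that each has in these values cannot be told apart.

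**Figure D5:**
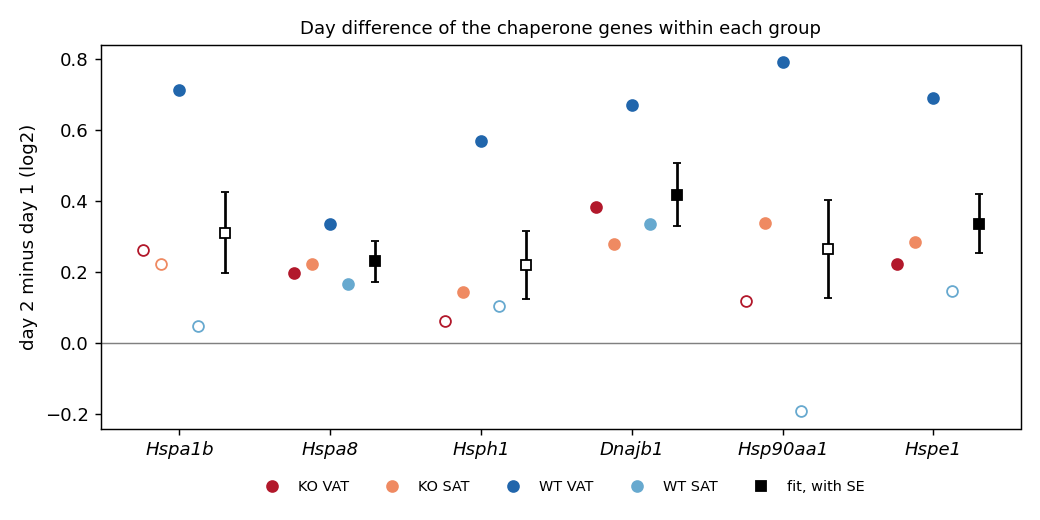
Day 2 minus day 1 (log2) for each measured chaperone gene within KO VAT, KO SAT, WT VAT and WT SAT, as differences of the means of 2 pools; filled circles mark groups where both day 2 pools exceed both day 1 pools. Squares with SE bars are the fitted day difference over all groups, filled where the adjusted p is under 0.05. All points but Hsp90aa1 in WT SAT lie above 0, and WT VAT has the highest point for each gene.

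Chaperone genes outside the 8 were counted in the comparison of genotypes over both depots. Of 14 other HSP40 genes 11 were higher in knockout and 1 lower (median 0.41), of 11 other HSP70 and HSP110 genes 6 were higher and 0 lower (0.33), and of 10 HSP90 genes and co-chaperones 6 were higher and 0 lower (0.31). Of 8 subunits of the cytosolic chaperonin TRiC 6 were higher (0.25), of 11 HSP70 co-chaperones 6 (0.29) and of 11 mitochondrial chaperones and proteases 5 (0.33), with none lower. Some genes, such as Hspa9 and Grpel1, stand in more than 1 list. These shares stand against 22.5% of all genes higher. Hspa5, the HSP70 of the endoplasmic reticulum, rose by 0.87 ± 0.13, Dnajb9, a J-protein of the same compartment, by 0.81 ± 0.14, Hspa9, the mitochondrial HSP70, by 0.33 ± 0.07 and Grpel1, its nucleotide exchange factor, by 0.41 ± 0.08 (adjusted p = 0.000288, 0.00083, 0.00231 and 0.00178). Of the 4 measured heat shock factor genes and regulators 0 rose and 1 fell, Hsf2bp (by 0.63 ± 0.12), and of 9 small heat shock proteins 3 rose, Hspb8 (0.66), Hspb1 (0.36) and Cryab (0.32), and 2 fell, Hspb3 (by 0.55) and Cryaa (by 0.25). The median of the small heat shock proteins was 0.18.

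Genes of the immediate early response, which turn on within minutes of cell handling, also moved by genotype and by day. In knockout, over both depots, 13 of 19 were higher and 1 lower (median 0.39), Egr2 by 0.80 ± 0.10, Jun by 0.72 ± 0.12 and Klf4 by 0.67 ± 0.09. In SAT 8 of 19 were higher and 1 lower (16.7% of all genes higher). In VAT 5 of 19 were higher and 0 lower (10.2% of all genes higher). Jun averaged 8.05 in KO VAT and 6.71 in WT VAT, against 7.68 in KO SAT and 7.57 in WT SAT. On day 2, 11 of 19 were higher and 0 lower (median 0.30), Klf4 by 0.53 ± 0.09 and Jun by 0.46 ± 0.12. Of the related chaperones on day 2, 7 of 14 other HSP40 genes were higher and 1 lower, 5 of 11 mitochondrial chaperones and proteases were higher with 0 lower, 2 of 8 TRiC subunits with 0 lower and 2 of 11 other HSP70 and HSP110 genes with 0 lower. Of HSP90 genes and co-chaperones 1 of 10 was higher and 0 lower, of HSP70 co-chaperones 2 of 11 higher and 1 lower, of heat shock factor genes and regulators 1 of 4 higher and 0 lower, and of small heat shock proteins 0 of 9 higher and 1 lower. These shares stand against 17.2% of all genes higher on day 2. Of macrophage markers 6 of 10 were higher and 0 lower. The list counts by genotype and by day come from the model with group and day. They were not made with array spread as a term, under which the members lost their calls. What part handling has was not tested.

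Dnajb4, a J-protein close to Dnajb1, was the chaperone in these lists with a depot difference in knockout beside Hspb7. It averaged 10.15 ± 0.09 in KO VAT and 8.88 ± 0.25 in KO SAT, against 8.44 ± 0.59 in WT VAT and 8.85 ± 0.35 in WT SAT, with SD over 4 pools. Its pools in KO VAT, 10.04 to 10.27, lay above all pools of the other groups. VAT minus SAT in knockout was 1.27 ± 0.20 (adjusted p = 0.00197), and its knockout effect was 1.68 ± 0.29 higher in VAT than in SAT (adjusted p = 0.00258), opposite in sign to that of Hspa1b.

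Over the 16 arrays, which share normalization and spread, Hspa1b followed the other 5 members loosely (Pearson r from 0.38 with Hsph1 to 0.65 with Hspe1). Among those 5, r lay between 0.68 and 0.91, highest for Hsph1 and Dnajb1. By the same measure, Hsp90aa1 was most like Selenof (0.982), Etf1 (0.979) and Naa15 (0.977), Hspe1 most like Pam16 (0.983), Tmco1 (0.981) and Cers5 (0.977), and Hspa1b most like Herc6 (0.934), Slc25a28 (0.934) and Ifit2 (0.930). These are descriptions over 16 arrays, and Hspa1b and Hspe1 were taken up for them after their values were seen, in place of Hspa1a and Hspd1.

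Other probe sets of the members differed in the size of the genotype difference. The second probe set of Dnajb1 was at 0.12 over both depots and that of Hspe1 at 0.18, the other 3 of Hspa8 were at 0.15, 0.11 and 0.37, and none passed. Those of Hspa1b gave 0.51 and 0.61 and passed (adjusted p = 0.0098 and 0.00182). Correlation with the probe set in use was 0.63 for Dnajb1, 0.90 for Hspe1 and between 0.49 and 0.80 for Hspa8, whose brightest probe sets are of a kind that can bind several transcripts. The probe set in use for Hspe1 is of such a kind too. Fitted among all probe sets, the other probe set of Hspe1 did not pass in SAT (0.24), and passed in KO VAT against WT SAT (0.38).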

How the data were processed

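The deposited log2 values are probe set summaries made by the authors with RMA from the affy package, per the submitters' processing notes. RMA, as generally known, corrects background, normalizes by quantiles and summarises probes. Versions and scanner are not given in the sources used here. RNA from 300000 cells was amplified for 24 cycles, per the labels' protocols, which can compress or stretch differences. Values ran from 2.91 to 13.19 over 45141 probe sets, of which 104 were controls, 28898 named 1 gene, 551 several and 15588 none. Each of 17097 genes took its probe set of highest mean (7180 had more than 1).

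Groups came from the labels' genotype and tissue. limma 3.58.1 in R 4.3.3 fitted group and day over all 16 arrays (lmFit, eBayes), with Benjamini-Hochberg adjustment over all genes and a threshold of 0.05. SE values are those of the fit. The fit was tested on simulated data. Arrays give no depth, so their number limits the precision. Python 3.11.15 with pandas 2.3.3, numpy 2.4.6 and matplotlib 3.10.9 made the tables and figures.

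The measured members are named in every comparison, and of each other list up to 4 genes of smallest p among those past the threshold. Cryab falls outside that rule and was named after its value was seen. The rule for genes of like pattern named Hspa1a and Hspd1, and Hspa1b and Hspe1 took their place. The members and lists were chosen with earlier results of these data known. The alternatives tried were leaving the day out of the model, fitting either day by itself, a block for pool number, the compared arrays alone, a filter on the lowest 40% of probe sets, other probe sets, median centring, quantile normalization, array weights, trend and robust settings, array spread as a term, and leaving out each array.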

Additional observations from a re-analysis of the deposited data

Results flagged for a closer look

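Hsp90aa1 in KO VAT pool 2 stood at 9.64, while the other 3 KO VAT pools lay between 9.86 and 9.89, a gap that passed Dixon's 95% critical value for 4 samples. It was 1 of 24 groups tested over the 6 genes, and chance flags about 1 in 20.

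The knockout effect on Hspa1b differed between the depots as labelled: the effect in VAT minus that in SAT was -1.05 (limma adjusted p = 0.0132), with effects of -0.21 in VAT and 0.84 in SAT.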

How the results depend on the processing

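Counts of members past the threshold moved with the settings. In the genotype comparison over both depots, 6 passed, against 2 on day 2 alone, 3 on day 1 alone, 3 with the next probe set, 4 with no day term or after quantile normalization, 5 with the mean of the probe sets or array weights, and 0 with array spread as a term. In SAT, 2 passed, against 1 with no day term, 0 on day 1 alone, 4 with the compared arrays alone, 1 with the next probe set, 4 with array weights and 0 with array spread. In VAT, 2 passed, against 1 with no day term, 0 on day 2 alone, 4 on day 1 alone, 1 with the compared arrays alone, 1 with the next probe set and 4 after quantile normalization. VAT against SAT in wild type gave 0, against 3 on day 2 alone, 3 after quantile normalization and 2 with array spread. In knockout it gave 1, against 0 with no day term, on either day alone, with the replicate block or after centring. The difference of effects gave 1, against 0 with no day term, on day 1 alone or with the next probe set, 2 after quantile normalization and 3 with array spread. KO SAT against WT VAT gave 0, against 2 on day 1 alone and 1 with the mean or the next of the probe sets. KO VAT against WT SAT gave 4, against 1 with no day term or on day 1 alone, 2 with the next probe set or after quantile normalization and 0 with array spread. The day difference gave 3, against 1 with the next probe set, 0 after quantile normalization, 5 with array weights and 0 with array spread. The cause was not tested. Calls over all genes moved with the settings too, over both depots from 51.7% to 7.91% with array spread as a term. Shares of all genes do not stand beside each count, here or with 1 array left out. The counts therefore cannot be read as particular to the members.

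Leaving out 1 array gave 5 to 6 over both depots, 2 to 4 in SAT, 1 to 4 in VAT, 0 to 2 for VAT against SAT in wild type and 0 to 1 in knockout, 1 to 1 for the difference of effects, 0 to 2 for KO SAT against WT VAT, 1 to 5 for KO VAT against WT SAT, 3 to 5 for day, and 0 to 0 for day by genotype.

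Directions turned as follows. With array spread as a term, over both depots Hspa1b was at -0.066 and Hsp90aa1 at -0.14; in SAT Hsph1 at -0.27, Dnajb1 at -0.082, Hspa8 at -0.0080 and Hsp90aa1 at -0.37; in VAT Hspe1 at -0.034; between wild-type depots Hspa8 at -0.0059. KO SAT against WT VAT then had Hspa8 at -0.0021, Hsp90aa1 at -0.074 and Hspe1 at -0.21, and KO VAT against WT SAT had Hspa1b at -0.21, Hsph1 at -0.0093 and Hsp90aa1 at -0.21. The day difference was -0.060 for Hsph1 and -0.22 for Hsp90aa1, and day by genotype 0.025 for Hsp90aa1. After quantile normalization Hsph1 in SAT was at -0.080, KO SAT against WT VAT was -0.011 for Hspa8 and -0.063 for Hspe1, KO VAT against WT SAT -0.047 for Hspa1b, day -0.048 for Hsph1 and -0.016 for Hsp90aa1, and day by genotype 0.052 for Hspa8 and 0.076 for Hsp90aa1. On day 2 alone Hspe1 in VAT was at -0.0065, wild-type depots at 0.00064 for Hsph1, 0.10 for Dnajb1 and 0.43 for Hsp90aa1, knockout depots at -0.0096 for Hsp90aa1, the difference of effects at -0.44 for Hsp90aa1 and KO SAT against WT VAT at -0.12 for Hspe1. On day 1 alone Hspa1b in VAT was at 0.011, wild-type depots at -0.045 for Hspa8 and the difference of effects at 0.067 for Hspe1. With the next probe set Hspa1b in VAT was at 0.059, wild-type depots at -0.0098 for Hspa8, knockout depots at -0.042 for Dnajb1 and KO SAT against WT VAT at -0.025 for Hspe1; with the mean of probe sets the difference of effects was -0.093 for Hspa8. Array weights gave 0.074 for Hsp90aa1 between wild-type depots and 0.056 for its day by genotype. The second and the third probe set of Hspa1b, added after seeing the data, gave 0.059 and 0.033 in VAT, and the third -0.16 between wild-type depots, -0.12 for KO VAT against WT SAT and 0.059 for day by genotype.

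With 1 array left out, changes that turned direction ranged, between wild-type depots, from -0.16 to 0.082 for Dnajb1, -0.0091 to 0.11 for Hspa8 and -0.20 to 0.20 for Hsp90aa1. The difference of effects ranged from -0.10 to 0.31 for Hsp90aa1, KO SAT against WT VAT from -0.015 to 0.16 for Hspe1, and day by genotype from -0.10 to 0.033 for Hspa8 and -0.24 to 0.20 for Hsp90aa1.

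Over all genes, 8831 passed over both depots, against 1353 with array spread, and 4831 for day, against 204 with array spread and 1733 after quantile normalization. In VAT 2724 passed, against 331 on day 2 alone and 5376 on day 1 alone, and in SAT 6279, against 582 on day 1 alone. Pool numbers were shared between groups. Deviations from group means correlated above 0.1 in 18 of 24 same-numbered pairs, and, once day was taken out, in 3 of 12 (pools of 1 day and group then deviate by equal and opposite amounts, so each value stands for 2 pool numbers). With pool number as a replicate block 6 passed over both depots, 2 in SAT, 3 in VAT, 0 for both depot comparisons, 1 for the difference of effects, 0 for KO SAT against WT VAT and 4 for KO VAT against WT SAT. An array carries 1 pool, and 4 pools a group limit the precision.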
